A study of Saccharomyces cerevisiae with 72 samples.

Results

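Ribosome biogenesis factors are the nucleolar proteins that cut, fold, modify and package ribosomal RNA into the subunits of the ribosome. The 49 *Saccharomyces cerevisiae* genes described here are a list of named genes grouped by function, 49 of the 6843 features in the count table. The list itself uses no measured value, but it was drawn up with earlier results of these data known. They were followed along 2 routes to polyploidy, each compared with cells that grew in an arrest and with cells that went on cycling. All grew in rich glucose medium. The strains derived from W303, except that the *cdc24-1 swe1Δ* strain came from another background and was backcrossed to W303. In the *mad1Δ bub2Δ* test, polyploid cells were *mad1Δ bub2Δ* cells in nocodazole at 30 °C, labelled as lacking 2 spindle checkpoint proteins, whose loss lets cells replicate their DNA again without segregating it. The arrested cells of that test were *MAD1 BUB2* cells in nocodazole at 30 °C, and the cycling cells were *mad1Δ bub2Δ* cells given the solvent DMSO at 30 °C. In the *cdc24-1 swe1Δ* test, polyploid cells were *cdc24-1 swe1Δ* cells at 37 °C, which cannot bud but go on replicating. Its arrested cells were *cdc24-1 swe1Δ cdc20-1* cells at 37 °C, which stop in mitosis. Its cycling cells were *cdc24-1 swe1Δ* cells at 25 °C. By the labels all cells of this test carried *cdc24-1* and *swe1Δ*. The *cdc20-1* strain is of mating type α and the other strain of this test of type a, so mating type and *cdc20-1* cannot be told apart in any comparison of them. Each condition had 3 replicate cultures, sampled at 0, 4, 8, 12 and 16 h (cycling cells at 0 and 16 h), which gave 36 poly(A) RNA libraries a test.

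A ribosome is built in the nucleolus from a long ribosomal RNA precursor made by RNA polymerase I. Box C/D small nucleolar ribonucleoproteins (snoRNPs) methylate it and box H/ACA snoRNPs convert uridines to pseudouridine. The U3 snoRNP and the UTP-A, UTP-B and UTP-C complexes assemble on the 5′ part of the precursor as the small-subunit (SSU) processome. A separate set of scaffolds, RNA helicases and GTPases leads the large subunit out of the nucleolus. In budding yeast these genes form a well-known co-regulated group that rises with growth and nutrients and falls in many stresses.

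Library totals ran from 1597321 to 9987276 counts (median 6918124). The 49 genes together took 0.691% to 2.90% of the counts of a library. All 49 passed the filter on low counts in both tests. The lowest count of any of them in any library was 113. *BUB2* had 0 counts in all 21 libraries labelled *mad1Δ bub2Δ*. *MAD1* had 121 to 349 counts there against 372 to 1012 in the *MAD1 BUB2* strain, so the deletion of *MAD1* was not seen as an absence of its counts. *SWE1* had 0 counts in the *cdc24-1 swe1Δ* test except in arrested culture 2 at 16 h (152 counts). That library also had 3472 counts of *STE2*, a gene of type a cells, against 37 to 187 in the other arrested libraries of this test, and so goes against its label. Ribosomal RNA took 47.6% of 1 library of polyploid *cdc24-1 swe1Δ* cells and at most 16.7% of the other 71. The values below are log2 changes fitted with edgeR after TMM scaling. Levels are CPM, counts scaled to an equal library size, with the same TMM factors. A gene is said to rise or fall where its Benjamini-Hochberg adjusted p, over all genes tested, was under 0.05. Bulk RNA cannot tell fewer cells of a kind from less RNA in each cell. All values are shares of a library rather than amounts per cell.

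The levels of the 49 genes, in TPM (transcripts scaled to length and library size), spanned from 33.8 for *UTP20* (YBL004W), a very long SSU processome scaffold, to 584 for *NHP2* (YDL208W), the box H/ACA core protein, as means over 72 libraries. The snoRNP proteins were the most abundant classes. Box C/D proteins lay between 282 and 538 TPM, with *NOP1* (YDL014W), the RNA methyltransferase fibrillarin, at 538 TPM. Box H/ACA proteins lay between 408 and 584 TPM. UTP-A proteins, which join the precursor first, lay between 50.6 and 82.8 TPM. The GTPases *NUG1* (YER006W), *NOG1* (YPL093W) and *NOG2* (YNR053C) lay between 153.6 and 173 TPM. *NSR1* (YGR159C), a nucleolar protein akin to nucleolin, was the highest of the remaining small-subunit factors at 522 TPM. *SSF1* is near-identical to *SSF2* (92.1% over 1362 bases). Reads may be split between them, and its values are uncertain.

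Promoters were searched for the PAC (CGATGAG) and RRPE (AAAAATTTT) elements, which are known from yeast ribosome biogenesis genes. Both strands were read from 250 bases before to 50 bases after the start codon in the RefSeq sequence of assembly R64. PAC stood in 36 of the 49 (73.5%) against 421 of 6001 promoters (7.02%). RRPE stood in 35 (71.4%) against 419 of 6001 (6.98%). Both were found in 24 of 49 (49%, against 2.18% of all promoters), and neither in *UTP22* and *RRP9*. The stretches below belong to the genes with the largest and the smallest rises in the *cdc20-1* arrest. Each begins 12 bases before its first element and is written in the direction of the gene. Capitals mark the elements, which are CGATGAG or its reverse complement for PAC and a run of A followed by T for RRPE, where matches on the 2 strands can overlap.
NOG2 (chrXIV:723245-723305, minus strand): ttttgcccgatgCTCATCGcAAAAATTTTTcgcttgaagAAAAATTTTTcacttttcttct
NOG1 (chrXVI:370823-370867, plus strand): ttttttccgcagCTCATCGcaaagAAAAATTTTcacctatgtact
NSR1 (chrVII:807825-807855, minus strand): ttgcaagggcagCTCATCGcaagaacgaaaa
SSF1 (chrVIII:229226-229256, plus strand): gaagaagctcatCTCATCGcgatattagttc
NOP1 (chrIV:427126-427159, plus strand): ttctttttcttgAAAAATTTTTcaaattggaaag
GAR1 (chrVIII:283415-283448, minus strand): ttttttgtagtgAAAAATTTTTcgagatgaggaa
NOP56 (chrXII:545974-546006, plus strand): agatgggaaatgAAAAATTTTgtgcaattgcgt
The first 4 genes carry PAC, and *NOP1*, *GAR1* and *NOP56* carry RRPE without PAC. *NOP15*, with the next largest rise (2.40 at 8 h), also carries RRPE without PAC. A match is a description of the letters and not a site shown to be bound.

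The mean log2 CPM of the 49 genes stood on opposite sides of its 0 h level in the arrested cells of the tests when scaled by TMM. In *MAD1 BUB2* cells in nocodazole the difference from 0 h was -0.26 ± 0.02 at 4 h, -0.66 ± 0.03 at 8 h and -0.46 ± 0.05 at 16 h (SD over 3 cultures). In *cdc20-1* cells at 37 °C it stood 1.09 ± 0.06 above the 0 h mean at 4 h, 1.52 ± 0.06 above it at 8 h, 1.01 ± 0.0053 above it at 12 h and 0.47 ± 0.17 above it after 16 h. Polyploid cells lay between these courses. *mad1Δ bub2Δ* cells reached 0.58 ± 0.06 at 8 h and 0.17 ± 0.21 at 16 h. *cdc24-1 swe1Δ* cells reached 0.65 ± 0.16 at 4 h and returned to -0.14 ± 0.23 at 16 h. The scaling sets the zero of these means and turns some of their signs. By TPM the nocodazole mean was 0.11 at 4 h, 0.20 at 12 h and 0.32 at 16 h, and by total counts it stayed below 0 (-0.03 at 16 h). The mean of polyploid *cdc24-1 swe1Δ* cells at 16 h was 0.29 by total counts and 0.47 by TPM. With TPM in place of TMM the median of all genes at 8 h of the nocodazole arrest was 0.67 above 0 h rather than 0.13, and the 49 genes were at -0.08 rather than -0.66. Relative to the median of all genes their mean was -0.79 with TMM and -0.75 with TPM. Over 5 scalings this relative mean varied by at most 0.0874 in any of the 18 conditions after 0 h and changed sign in 0. Scalings that differ by a factor for each library shift both terms alike, so only TPM could move it much. The shares of all genes given below are those with TMM and all cultures. They are no background for counts under other scalings or with a culture or library left out, which are given without one.

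**Figure D1:**
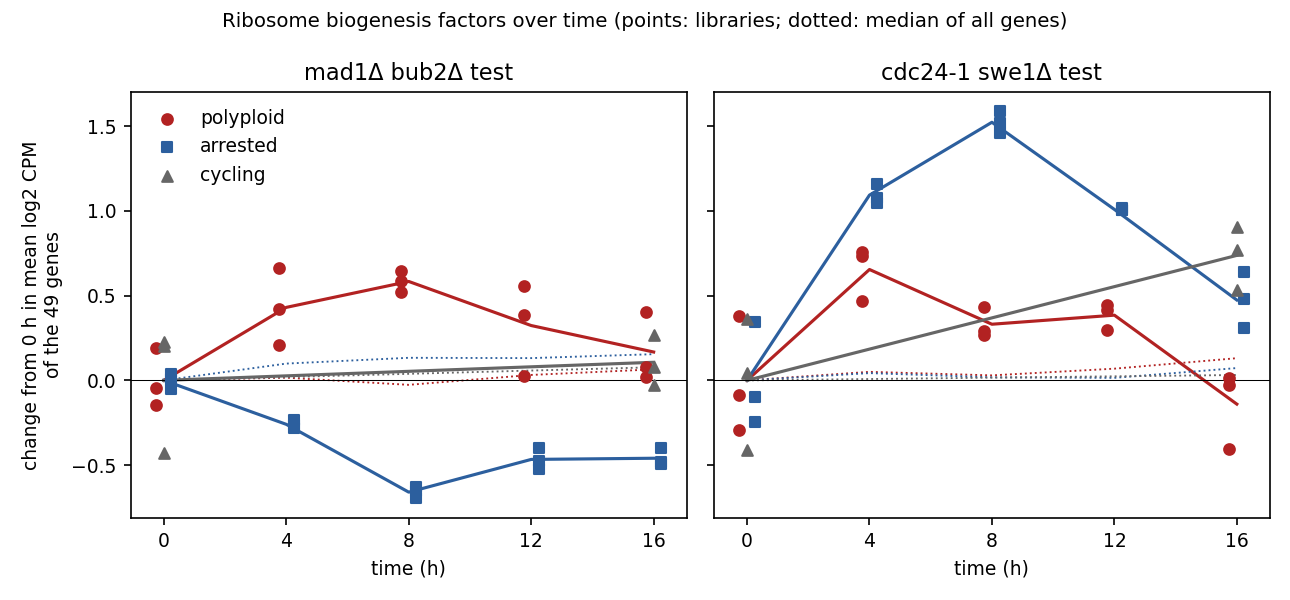
Change from 0 h in the mean log2 CPM of the 49 ribosome biogenesis factors (y axis) against time in h (x axis) in each test. Points are libraries, lines join the means of 3 cultures, and dotted lines give the median of all genes. The arrested cells of the *cdc24-1 swe1Δ* test lay at 1.52 at 8 h, and those of the *mad1Δ bub2Δ* test at -0.66.

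The starting cultures of the *mad1Δ bub2Δ* test were not alike, and this bears on every change from 0 h below. The nocodazole and DMSO series of *mad1Δ bub2Δ* cells are the same strain by their labels. At 0 h each of the 49 genes was nevertheless lower in the nocodazole series (median log2 difference -0.91), where 9.69% of the 6025 genes tested were lower and 7.14% higher. With these conditions fitted alone, 30 of the 49 were. The largest differences were in *SSF1* (-1.42 ± 0.22 SE) and *NSR1* (-1.37 ± 0.25), and the smallest in *NOP56* (-0.50 ± 0.17). *NSR1* read 471, 457 and 662 CPM in the cultures of the polyploid series and 1717, 1551 and 857 CPM in the cycling series. Cycling culture 3 was the lowest of its group, and the groups did not overlap. Between the *mad1Δ bub2Δ* and *MAD1 BUB2* cultures at 0 h, 13 of 49 genes were lower in *mad1Δ bub2Δ* cells (3.87% of all genes were lower and 5.91% higher; median -0.39), with *UTP20* at -0.78 ± 0.17. That count was 2 without any one of arrested cultures 1, 2 and 3. It was 5 without polyploid culture 1, 3 without polyploid culture 2 and 23 without polyploid culture 3. In the *cdc24-1 swe1Δ* test, polyploid and cycling cultures at 0 h differed in 0 of 6028 genes, with 0 of 49 at an unadjusted p under 0.05 in edgeR and 0 by DESeq2.

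The comparison of polyploid with arrested *mad1Δ bub2Δ* test cells sets growth with repeated genome duplication beside growth in an arrest. Genotype, arrest and DNA content differ together between these cells and cannot be told apart. At 8 h in polyploid cells 29 of the 49 genes had risen and 0 had fallen (median 0.59, against 0.03 over all genes), where 16.5% of all genes rose and 16% fell. In arrested cells 36 had fallen and 2 had risen (median -0.70, against 0.06), where 24.5% of all genes fell and 29.9% rose. The difference between these changes was itself tested, and it was above 0 for 45 genes and below for 0 (median 1.32), against 16.8% and 20.3% of all genes. It was smallest in *UTP7* (0.07 ± 0.26) and largest in *UTP20* (2.11 ± 0.24; edgeR, Benjamini-Hochberg adjusted p = 2.69e-08). *NOG2*, *UTP9*, *UTP15* and *UTP7* did not pass. The count of 29 rises became 11 without polyploid culture 2. On the TPM scale (limma) there were 16 rises in polyploid cells and 7 rises and 12 falls in arrested cells. The difference was then above 0 for 18 genes and below for 1. The TMM shares above are no background for these TPM counts.

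The fall in the nocodazole arrest was unequal among roles. All 3 box C/D proteins fell (median -1.22) and all 3 box H/ACA proteins fell (median -0.96). None of these 6 had risen at 8 h in polyploid cells except *NHP2* (0.55 ± 0.19). *NOP1* read 986, 837 and 825 CPM in the arrested cultures at 0 h and 276, 342 and 299.9 CPM at 8 h, a log2 change of -1.52 ± 0.23. In polyploid cells *NOP1* read 643, 826 and 731 CPM at 0 h and 952, 868 and 723 CPM at 8 h. The arrested cultures at 8 h lay below both their own start and every polyploid culture at 8 h, whereas the polyploid values at 0 and 8 h overlapped. *GAR1* (YHR089C), a box H/ACA core protein, fell most of the 49, from 495, 399 and 421 CPM at 0 h to 121, 157 and 133 CPM at 8 h (-1.67 ± 0.19, edgeR, Benjamini-Hochberg adjusted p = 1.32e-08). *NHP2* read 292, 233 and 281 CPM at 0 h and 127, 159.5 and 149.6 CPM at 8 h of the arrest, with no overlap.

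Among the classes with at least 3 genes, the UTP-A proteins and the GTPases had the smallest falls by their medians. Of 6 UTP-A genes 3 fell and *UTP9* rose (0.49 ± 0.21), with a class median of -0.24. The 3 GTPases had a median of -0.21. *NOG2*, a GTPase of late large-subunit assembly, read 156, 148 and 166 CPM at 0 h and 246, 230.3 and 216 CPM at 8 h of the arrest and rose (0.56 ± 0.21). In polyploid cells it read 144, 109 and 159.7 CPM and then 329, 266 and 275 CPM (1.09 ± 0.21). *NOG2* was thus above its 0 h values in every culture of both kinds of cells at 8 h. The difference between the changes was 0.52 ± 0.29 and did not pass. *UTP5*, also of UTP-A, read 142, 153 and 150.1 CPM at 0 h and 144, 173 and 151 CPM at 8 h of the arrest, with overlap. Its polyploid values were 96.8, 82.7 and 134 CPM and then 231, 162 and 188 CPM, without overlap. *DIP2*, the single UTP-B gene among the 49, read 155, 148 and 160.1 CPM and then 169.9, 142 and 165 CPM in arrested cells. The polyploid cultures gave 149.6, 131 and 142 CPM and then 283, 255 and 267 CPM. As for *UTP5*, its values overlapped between the times in the arrest and did not in polyploid cells.

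Large-subunit scaffolds and other factors also separated the groups. *NOP7* (YGR103W), a scaffold of large-subunit assembly, read 696, 718 and 664 CPM at 0 h and 304, 276 and 278 CPM at 8 h of the arrest (-1.27 ± 0.17). In polyploid cells it read 406, 416 and 578 CPM and then 489, 622 and 519 CPM. *MPP10*, which binds the U3 RNA region of the processome, read 312, 303 and 263 CPM and then 129, 136 and 138 CPM in the arrest. Its polyploid values were 213, 201 and 215 CPM and then 286, 283 and 236 CPM. Both genes separated arrested from polyploid cultures at 8 h without overlap. Both were already higher at 0 h in the arrested strain, again without overlap. *DBP3*, an RNA helicase, read 375, 372 and 354 CPM and then 199, 209.6 and 198 CPM in the arrest. The polyploid cultures gave 253, 271 and 353 CPM and then 351, 321 and 332 CPM. *MRT4*, which helps to build the stalk of the large subunit, read 244, 198 and 232 CPM and then 121, 116 and 112 CPM in the arrest. In polyploid cells it read 199, 187 and 184 CPM and then 296, 429 and 280.2 CPM. *MRT4* rose in polyploid cells and fell in arrested cells without overlap, with a difference of 1.77 ± 0.36 between the changes. *DBP3* fell in the arrest and overlapped its start in polyploid cells.

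**Figure D2:**
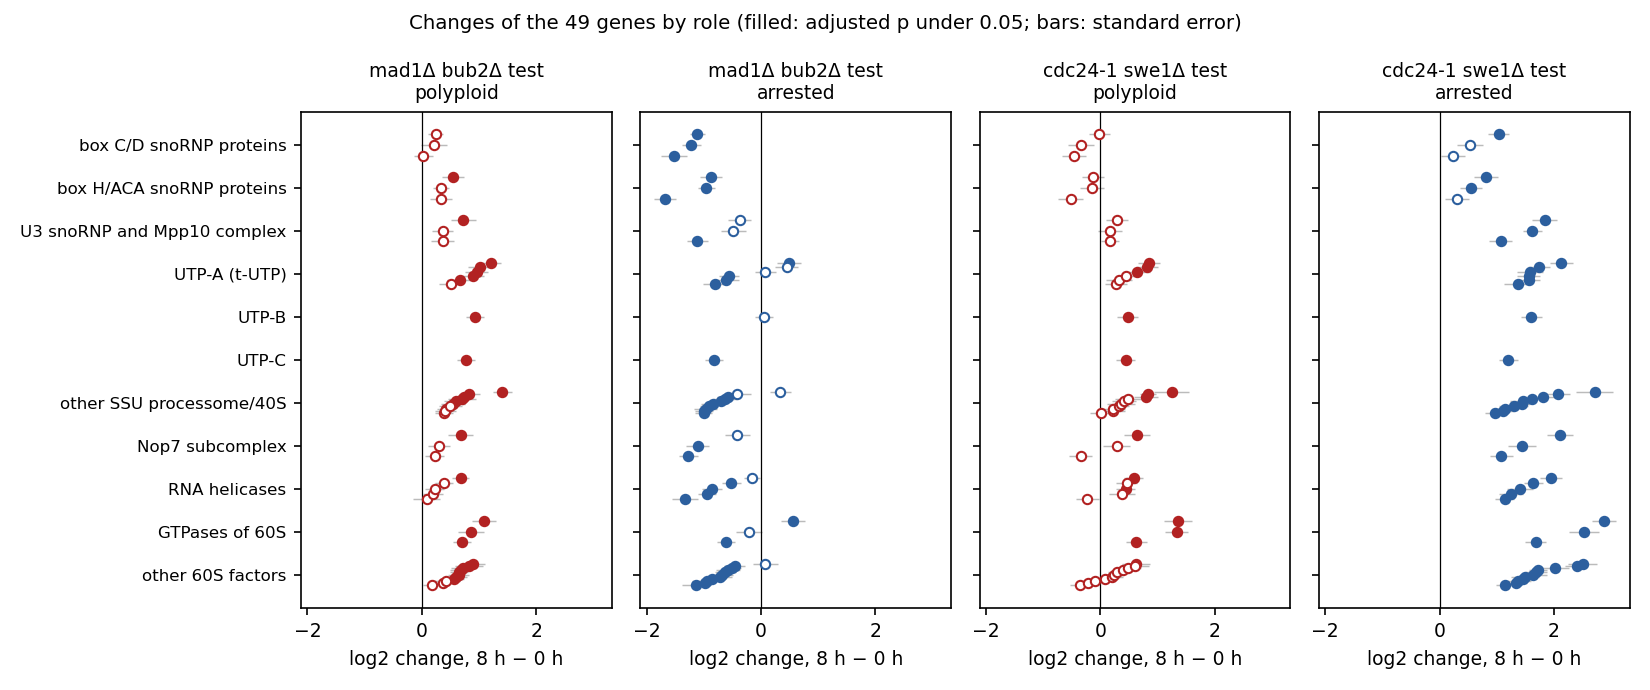
Log2 change from 0 h to 8 h (x axis) of each of the 49 genes, grouped by role (y axis), in the polyploid and arrested cells of each test. Filled points had a Benjamini-Hochberg adjusted p under 0.05 and bars are standard errors. In the nocodazole arrest the box C/D proteins had the lowest class median (-1.22), and in the *cdc20-1* arrest the GTPases lay furthest right by class median (2.52).

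The same comparison in the *cdc24-1 swe1Δ* test ran the other way. In *cdc20-1* cells 46 of the 49 genes had risen at 8 h and 0 had fallen (median 1.49, against -0.01 over all genes), where 25.9% of all genes rose and 25.5% fell. In polyploid cells 15 had risen and 0 had fallen (median 0.33), where 17.4% rose and 14.2% fell. The change in polyploid cells was below that in arrested cells for 41 genes and above for 0 (median difference -1.20), against 12.1% and 11.2% of all genes. The difference ran from -2.19 ± 0.28 in *NOP15*, a large-subunit factor (edgeR, Benjamini-Hochberg adjusted p = 1.67e-06), to -0.56 ± 0.23 in *SPB4*, a helicase, which did not pass. Without arrested culture 3 the count of 41 became 27. The count of 15 became 7 without polyploid culture 1 and 7 (6 rises and 1 fall) without polyploid culture 2. On the TPM scale (limma) 26 genes rose in polyploid cells.

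Of the classes with at least 3 genes, the GTPases had the highest median and the box C/D proteins the lowest in the *cdc20-1* arrest, as in nocodazole. The medians were 2.52 for the GTPases, 0.53 for box C/D proteins and 0.55 for box H/ACA proteins. The 3 genes that did not pass were *NOP56* (0.24 ± 0.21), *GAR1* (0.30 ± 0.22) and *NOP1* (0.53 ± 0.23). *NOP1* read 467, 558 and 382 CPM at 0 h and 651, 682 and 677 CPM at 8 h. *GAR1* read 315, 331 and 272 CPM and then 374, 321 and 426 CPM. The values of *NOP1* did not overlap between the times although its change missed the threshold. Those of *GAR1* did overlap. *NOG2* had the largest change of the 49 (2.87 ± 0.21, edgeR, Benjamini-Hochberg adjusted p = 4.58e-12). It read 89.8, 107 and 68.5 CPM at 0 h and 595, 627 and 699 CPM at 8 h. *NSR1* read 265, 344 and 170.2 CPM at 0 h and 1540.2, 1623 and 1886 CPM at 8 h (2.71 ± 0.32). Both genes also rose in polyploid cells. *NOG2* went from 106, 93.6 and 154 CPM to 309.6, 288 and 281 CPM and *NSR1* from 331, 258 and 441 CPM to 909, 925 and 574 CPM. The times did not overlap, and every value at 8 h was below every arrested value. *NOG1*, *SSF1* and *NOP15*, all of the large subunit, rose by 2.52, 2.50 and 2.40.

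Members of other classes rose in arrested cells by 8 h. *UTP5* read 91.6, 99.0 and 62.3 CPM at 0 h and 337, 392 and 368 CPM at 8 h. Its polyploid values were 96.3, 103 and 151 CPM and then 203, 228 and 189.7 CPM. *DIP2* read 112, 139 and 104 CPM and then 336, 381 and 354 CPM in arrested cells. The polyploid cultures gave 130.1, 96.5 and 163 CPM and then 175, 174 and 187 CPM. Both genes of the early processome rose without overlap in both kinds of cells. Their arrested values at 8 h lay above all polyploid values. *MRT4* read 115, 177 and 111 CPM and then 344, 316 and 378 CPM in arrested cells. In polyploid cells it read 182, 131 and 224 CPM and then 179.7, 147 and 128 CPM. *DBP3* read 173, 264 and 159.5 CPM and then 532, 527 and 509 CPM in arrested cells. Its polyploid values were 199, 178 and 302 CPM and then 292, 305 and 272 CPM. In *MRT4* and *DBP3* the arrested values rose without overlap while the polyploid values overlapped their start. *MPP10* (129, 184 and 112 CPM, then 282, 309.9 and 292 CPM) and *NHP2* (161, 173 and 139.6 CPM, then 272, 239 and 314 CPM) rose in arrested cells without overlap as well. In polyploid cells at 8 h *MPP10* read 215, 181 and 252 CPM and *NHP2* 209.6, 165 and 135 CPM, both overlapping their start.

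**Figure D3:**
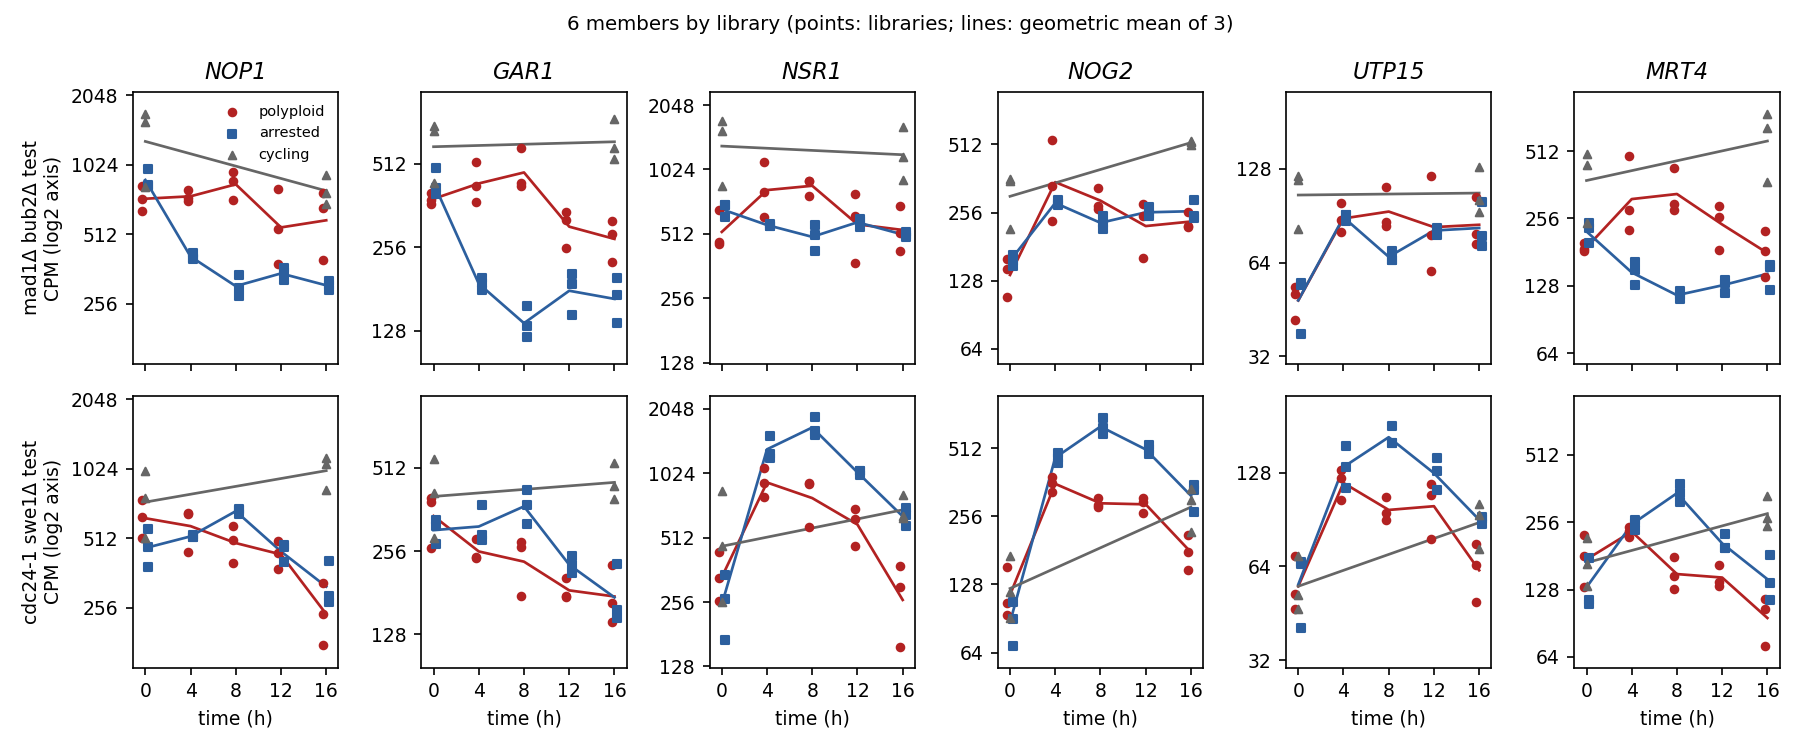
CPM on a log2 axis against time in h for 6 of the genes in both tests. Points are libraries and lines join geometric means of 3 cultures. *NSR1*, *NOG2* and *UTP15* of arrested *cdc24-1 swe1Δ* test cells peaked at 8 h, while *NOP1* and *GAR1* of arrested *mad1Δ bub2Δ* test cells dropped from 4 h on.

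The changes were present at 4 h, the first time after the shift. In polyploid *mad1Δ bub2Δ* cells 20 of 49 genes had risen (13.3% of all genes rose and 10.9% fell; median 0.35), among which *NOG2* rose most (1.42 ± 0.21). The count was 6 without polyploid culture 1. In the nocodazole arrest 17 had fallen and 6 had risen (17.9% and 20.7% of all genes; median -0.28). The 6 rises were *SSF1*, *UTP7*, *UTP9*, *UTP15*, *NOG2* and *DIP2*, and all 6 snoRNP proteins were among the falls. Without arrested culture 1, 2 or 3 in turn the 23 calls became 13, 15 and 13. On the TPM scale they split into 8 rises and 8 falls. The difference of the changes was above 0 for 21 genes and below for 0 (12% and 13.6% of all genes). It was above 0 for 13 without arrested culture 1, 12 without polyploid culture 1 and 33 without polyploid culture 3. By TPM it was above 0 for 2 and below for 1. In the *cdc24-1 swe1Δ* test 33 genes had risen in polyploid cells (17% of all genes rose and 11.7% fell; median 0.66) and none had fallen. In *cdc20-1* cells 44 had risen (20.6% and 20.7%; median 1.03) and none had fallen. The count of 33 became 17 without polyploid culture 1 and 16 without polyploid culture 2. The difference passed only in *NOP15* (-1.03 ± 0.28; 2.9% of all genes were below 0 and 4.33% above), and did not without polyploid culture 3, arrested culture 1 or arrested culture 3.

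At 16 h the share of the 49 genes that differed from 0 h in polyploid cells was no larger than that of all genes in either direction. In *mad1Δ bub2Δ* cells 11 genes were above 0 h and 1 was below (23.2% and 21.7% of all genes; median 0.12). The largest change was in *UTP15*, a UTP-A protein (0.82 ± 0.20), which read 53.2, 41.7 and 50.9 CPM at 0 h and 73.6, 104 and 79.1 CPM at 16 h without overlap. The lowest was in the helicase gene *HAS1* (-0.49 ± 0.23, not passing), which read 159.6, 184 and 240.1 CPM and then 138, 179 and 97.8 CPM with overlap. *GAR1* was the one that fell (-0.46 ± 0.19). In *cdc24-1 swe1Δ* cells 4 genes were above 0 h and 9 below (26% and 23.4%; median -0.14). *UTP7*, of the SSU processome, read 103, 102 and 132 CPM at 0 h and 165, 173 and 193 CPM at 16 h (0.65 ± 0.14). *NOP1* read 629, 514 and 752 CPM and then 241, 175 and 327 CPM (-1.36 ± 0.23). Neither gene overlapped its start, and they went in opposite directions. The other 3 rises were *UTP22*, *DBP10* and *NOG2*, and the other 8 falls *NOP56*, *GAR1*, *NOP7*, *BRX1*, *HAS1*, *TIF6*, *MRT4* and *KRR1*. These splits depend on the scaling. By total counts they were 23 rises and 0 falls in *mad1Δ bub2Δ* cells and 14 and 3 in *cdc24-1 swe1Δ* cells. On the TPM scale they were 29 and 0, and 25 and 1. By total counts the median of all genes was itself 0.31 and 0.56 above 0 h, against means of 0.41 and 0.29 for the 49. By TPM these were 0.49 and 0.72 against 0.57 and 0.47. Without polyploid culture 2 the 13 calls in *cdc24-1 swe1Δ* cells became 8 (1 rise and 7 falls).

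With TMM the arrests of the 2 tests still differed in sign at 16 h, but on the TPM scale they did not. In nocodazole 28 genes were below 0 h and 5 above (26.1% and 31.7% of all genes; median -0.47). The 5 were *UTP7*, *UTP9*, *UTP15*, *NOG2* and *DIP2*. By total counts the split was 8 rises and 13 falls, and on the TPM scale 18 rises and 2 falls. In *cdc20-1* cells 25 were above 0 h and 1, *GAR1*, was below (-0.74 ± 0.22; 28% and 23.9%; median 0.55), and 16 rose without arrested culture 1. These libraries include the one with *SWE1* counts and 3472 counts of *STE2*. Without it 23 genes were above and 4 below 0 h. With that library kept, *NOG2* had the largest rise at 1.89 ± 0.20. The change in polyploid cells exceeded that in arrested cells for 19 genes in the *mad1Δ bub2Δ* test (11.3% of all genes above and 12.6% below 0), or 10 without polyploid culture 2. It fell short of it for 15 in the *cdc24-1 swe1Δ* test (4.35% above and 7.53% below). The count of 15 became 4 without arrested culture 1 or arrested culture 3 and 8 without polyploid culture 2, and it was 12 without the library with *SWE1* counts.

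Cycling cells over the same 16 h gave a background of unequal size. In *mad1Δ bub2Δ* cells in DMSO 7 of 49 genes rose and 5 fell (19.9% and 17.2% of all genes; median 0.02). Without cycling culture 2, 2 rose and 0 fell, and without cycling culture 3, 3 rose and 7 fell. *NHP2*, *NOP15*, *UTP9*, *SSF1*, *EBP2*, *NOG2* and *DIP2* rose and *NOP1*, *NOP2*, *ERB1*, *DBP3* and *HAS1* fell. *NOP1* read 1562, 1692 and 816 CPM at 0 h, with culture 3 lowest, and 921, 691 and 772 CPM at 16 h, and the times overlapped. By TPM the split was 0 rises and 17 falls, where the mean of the 49 was -0.34 and the median of all genes -0.46. In *cdc24-1 swe1Δ* cells at 25 °C 34 genes rose and 0 fell (6.87% and 6.77%; median 0.72), but 3 rose without cycling culture 2. *NSR1* read 467, 257 and 846 CPM there at 0 h, with culture 2 lowest, and 629.6, 647 and 809 CPM at 16 h, which overlapped and did not pass. *NOG2* rose most (1.16 ± 0.20), from 119, 91.0 and 171 CPM to 219, 302 and 337 CPM without overlap. Against cycling cells, polyploid *mad1Δ bub2Δ* cells changed more in 7 genes and less in 4 (20.3% and 21.8% of all genes), from 0.89 ± 0.28 in *ERB1* to -0.86 ± 0.29 in *KRR1*. The split became 16 and 0 by total counts, and 37 and 0 on the TPM scale. It was 0 and 5 without polyploid culture 2, 0 and 0 without cycling culture 2, and 4 and 2 without cycling culture 1. Polyploid *cdc24-1 swe1Δ* cells changed less than cycling cells in 33 genes (18.3% of all genes below and 19.7% above 0; median -0.79). The count was 6 by total counts, 6 on the TPM scale and 15 without cycling culture 2. *NOP1* (-1.76 ± 0.32) and *HAS1* (-1.75 ± 0.30) had the largest of these differences.

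A fit over all 72 libraries compared the changes between the tests. At 8 h the change in nocodazole-arrested cells was below that in *cdc20-1* cells for 49 of 49 genes (median -2.25), against 19.2% of the 6148 genes tested below and 23.4% above 0. This count was 49 under each alternative run. The difference ran from -3.12 ± 0.41 in *NSR1* (edgeR, Benjamini-Hochberg adjusted p = 1.16e-08) to -1.06 ± 0.29 in *UTP9*. In polyploid cells the changes differed between the tests in 3 genes, all higher in *mad1Δ bub2Δ* cells (7.79% of all genes higher and 8.86% lower): *GAR1* (0.87 ± 0.29), *MRT4* (1.06 ± 0.34) and *UTP20* (1.06 ± 0.31). With the culture as a replicate block that count was 5. It was 5 without *cdc24-1 swe1Δ* polyploid culture 1 or *mad1Δ bub2Δ* polyploid culture 3, and 1 without *cdc24-1 swe1Δ* polyploid culture 3 or *mad1Δ bub2Δ* polyploid culture 2. It was 0 by total counts, and on the TPM scale 0 were higher and 6 lower. At 16 h the arrested cells still differed in 36 genes, all lower in nocodazole (10.2% lower and 14.2% higher), and in 30 without the library with *SWE1* counts. The polyploid cells differed in *NOP1* alone (1.09 ± 0.33; 7.76% higher and 6.23% lower). The count was 2 with the replicate block, 0 without *cdc24-1 swe1Δ* polyploid culture 2 or *mad1Δ bub2Δ* polyploid culture 1 or 2, and 5 without *mad1Δ bub2Δ* polyploid culture 3. Cycling cells differed in 19, all lower in *mad1Δ bub2Δ* cells (9.79% lower and 12% higher), with *ERB1* lowest (-1.69 ± 0.32). They differed in 2 without *mad1Δ bub2Δ* cycling culture 2 and 6 without *cdc24-1 swe1Δ* cycling culture 2. Strain, drug and temperature all differ between the tests and cannot be told apart here.

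**Figure D4:**
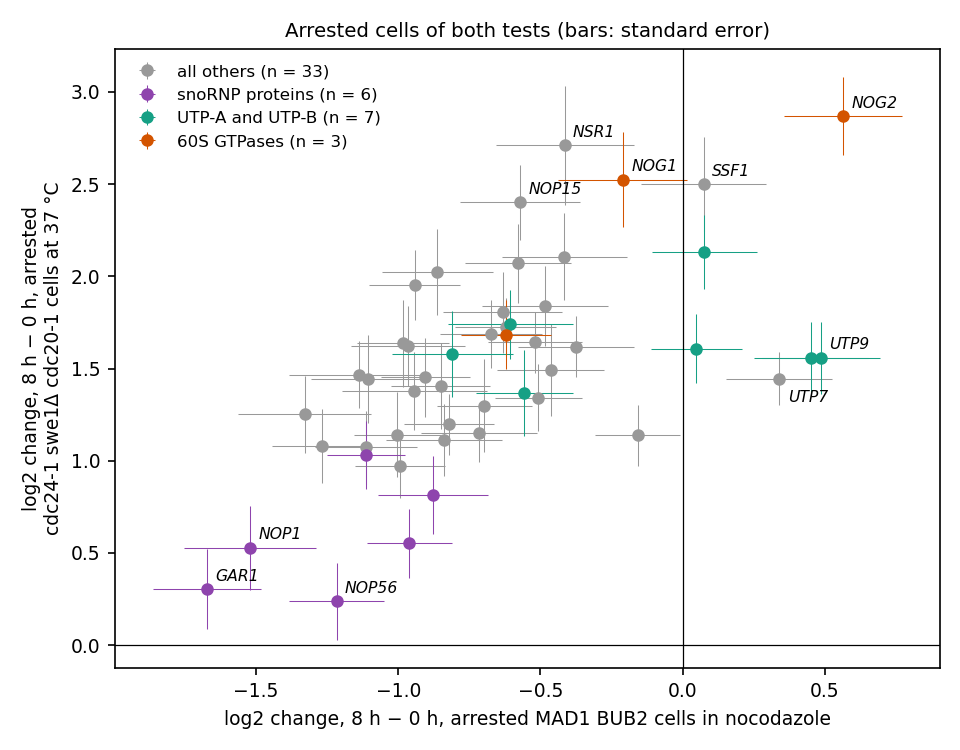
Log2 change from 0 h to 8 h of the 49 genes in arrested *cdc24-1 swe1Δ cdc20-1* cells at 37 °C (y axis) against arrested *MAD1 BUB2* cells in nocodazole (x axis). Bars are standard errors and colors mark role classes. *NOP1* and *GAR1* sit low on both axes and *NOG2* high on both. All 49 points lie above 0 on the y axis and 7 lie above 0 on the x axis.

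The study's own question, whether expression follows DNA content, was put to these genes as a slope per 100000 arbitrary units of DNA fluorescence over the 36 libraries of a test. Mean DNA content of polyploid cells went from 101878 units at 0 h to 441787 at 16 h in *mad1Δ bub2Δ* cells and from 108182 to 264282 in *cdc24-1 swe1Δ* cells. Arrested cells lay between 81611 and 112141 over both tests. In the *mad1Δ bub2Δ* test the slope passed a Bonferroni-adjusted p of 0.05 in 0 of 49 genes (1.89% of all genes rose and 1.28% fell; 3 genes at an unadjusted p under 0.05 and 0 by DESeq2). In the *cdc24-1 swe1Δ* test it passed in 1, *NOP7* (-1.24 ± 0.22 per 100000 units, edgeR, Bonferroni-adjusted p = 0.00972). Of all genes 2.75% rose and 2.06% fell. In this test 21 of the 49 had an unadjusted p under 0.05, all 21 with a slope below 0. The share of all genes at an unadjusted p under 0.05 was not counted, so these unadjusted counts have no background. Of the 49 slopes 46 were below 0 (median -0.21, against 0.0007 over all genes). The fit held no term for cell type, so these slopes also hold differences between polyploid, arrested and cycling cells. The slopes differed between the tests in *NOP7* (1.17 ± 0.20) and *UTP22* (1.05 ± 0.20; 1.46% of all genes above and 1.32% below 0). With the culture as a replicate block these counts of 1 and 2 became 0 and 0, as they did with cell type as a covariate or in polyploid cells alone. The slope difference of *UTP22* then turned to -0.17, -0.18 and -0.11, in that order. DESeq2 gave 3 genes for the *cdc24-1 swe1Δ* slope. The count of 1 became 0 without *cdc24-1 swe1Δ* polyploid culture 1, 2 or 3 or arrested culture 1. The count of 2 became 1 without any one of *cdc24-1 swe1Δ* polyploid cultures 1, 2 and 3 or arrested cultures 1 and 3.

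*NOP7* and *UTP22* stood apart among the 49 at 0 h of the *cdc24-1 swe1Δ* test. At 0 h, *UTP22* read 619.8, 771 and 664 CPM in the *cdc20-1* strain against 146, 132 and 137 CPM in the polyploid series. *NOP7* read 1228, 1589.7 and 1205 CPM against 304, 288 and 473 CPM. Neither gene overlapped between the strains. These were the only 2 of 49 genes that differed between the strains at 0 h, by 2.30 ± 0.17 and 1.91 ± 0.20 on the log2 scale. They are 4.08% of the 49, no more than the 4.61% of all genes that were lower in the polyploid series (4.64% were higher). Both lie on chromosome VII (R64), *UTP22* (YGR090W) at bases 662358 to 666071 and *NOP7* at 695417 to 697234. They lie in a block of 76 tested genes from *YGR039W* to *COG2* (bases 574888 to 730821), which was chosen after its values were seen. Of these, 73 were more than 1 log2 unit higher in the *cdc20-1* strain (median 2.00), against 8 of 434 other tested genes of that chromosome and 2.54% of all 5635 genes outside the block. The other 4 of the 49 on this chromosome, *DBP3*, *UTP8*, *ENP2* and *NSR1*, lie outside the block and differed by -0.19, 0.01, 0.10 and -0.41. In the *mad1Δ bub2Δ* test the block had a median of -0.10. DNA copy number was not analysed here, and its part in the values of *NOP7* and *UTP22* was not tested. From this start both genes rose in *cdc20-1* cells by 8 h, *NOP7* to 2691, 2853 and 2884 CPM and *UTP22* to 1476, 1656 and 1537 CPM.

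**Figure D5:**
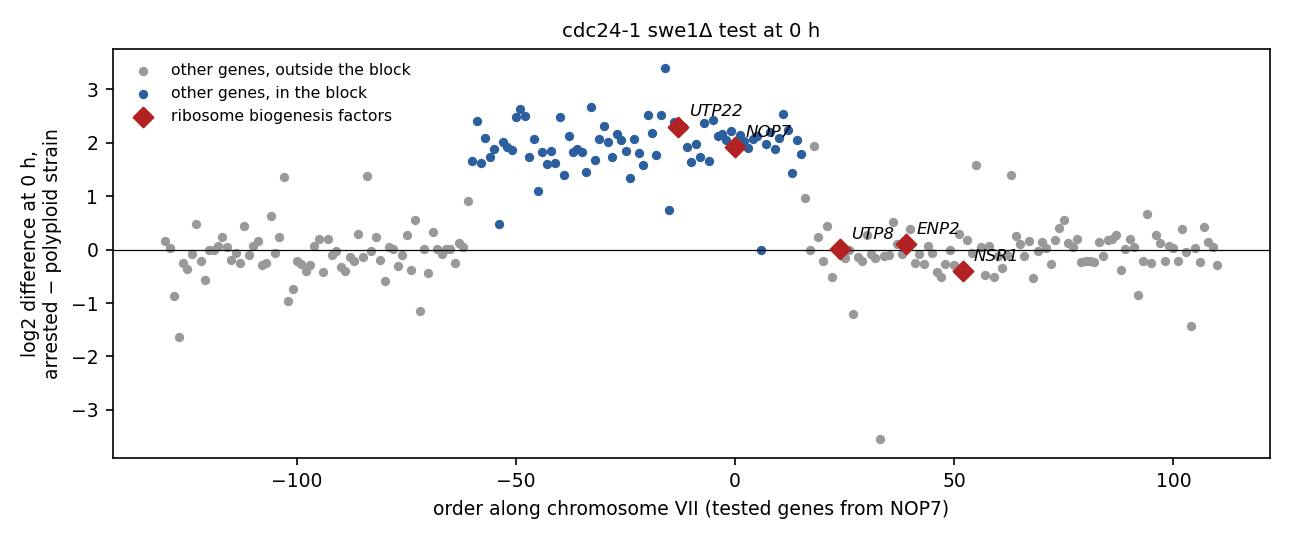
Log2 difference at 0 h between the *cdc20-1* strain and the polyploid series of the *cdc24-1 swe1Δ* test (y axis) for tested genes in their order along chromosome VII, counted from *NOP7* (x axis). *UTP22* and *NOP7* lie within a run of 76 genes with a median of 2.00, and *UTP8*, *ENP2* and *NSR1* lie outside it near 0.

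Promoter elements and levels were set beside the 8 h changes as a description. In the *cdc20-1* arrest the 12 genes with PAC alone had a median change of 1.69, the 24 with both elements 1.48 and the 11 with RRPE alone 1.14. The ranges overlapped (1.07 to 2.71, 0.97 to 2.87 and 0.24 to 2.40). In the nocodazole arrest the medians were -0.65, -0.62 and -0.90. Across the 49 genes, which are not independent replicates, the change at 8 h (at 16 h for cycling cells) and the mean log2 level had a Pearson correlation of -0.40 in the nocodazole arrest, -0.28 in the *cdc20-1* arrest -0.58 in cycling *cdc24-1 swe1Δ* cells and 0.05 in cycling *mad1Δ bub2Δ* cells. The 49 points of each correlation share their libraries.

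Other genes of the pathway, listed by function, were counted beside the 49 at 8 h. Over all genes 29.9% rose and 24.5% fell in the nocodazole arrest, 25.9% and 25.5% in the *cdc20-1* arrest, and 16.5% and 16% in polyploid *mad1Δ bub2Δ* cells. Of 86 other ribosome biogenesis factors, 63 rose in polyploid *mad1Δ bub2Δ* cells at 8 h and 0 fell, 12 rose and 35 fell in the nocodazole arrest, and 83 rose and 0 fell in the *cdc20-1* arrest. In nocodazole their median change was -0.27 with TMM and 0.30 on the TPM scale, so its direction depends on the scaling. Of 15 subunits and factors of RNA polymerase I, which transcribes the precursor, 5 rose and 5 fell in the nocodazole arrest (33.3% each, near the shares of all genes). The large subunits *RPA190* (-0.97 ± 0.17) and *RPA135* (-1.02 ± 0.20) fell and the initiation factor *RRN3* (2.10 ± 0.20) rose. In the *cdc20-1* arrest 13 of the 15 rose. The 136 or 137 ribosomal protein genes tested fell or rose beside the 49 at 8 h in the *mad1Δ bub2Δ* test. In the *cdc24-1 swe1Δ* test most calls at 8 h had the opposite sign. No test between the lists was run. In the nocodazole arrest 134 fell and 0 rose (median -1.71, and -1.21 on the TPM scale), where 36 of the 49 biogenesis factors fell. In the *cdc20-1* arrest 90 ribosomal protein genes fell and 4 rose (median -0.79, and -0.49 on the TPM scale) while 46 of the 49 biogenesis factors rose. In polyploid *cdc24-1 swe1Δ* cells 70 fell and 0 rose while 15 biogenesis factors rose (17.4% of all genes rose and 14.2% fell). With a polyploid culture left out, the number of biogenesis factors past the threshold there was as low as 7. In polyploid *mad1Δ bub2Δ* cells 102 of 136 ribosomal protein genes rose beside 29 of 49 biogenesis factors. By 16 h this was no longer so in those cells. There 122 of the 136 were below 0 h and 1 above (median -0.89). Of the 49, 1 was below and 11 were above (21.7% and 23.2% of all genes).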

How the data were processed

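Poly(A) RNA of 72 libraries was measured. The authors aligned reads to the S288C genome (R64-1-1) with nf-core/rnaseq, STAR and Salmon, and deposited a table of estimated counts per gene in whole numbers, which were tested as deposited. They also deposited a table of log2 values of TPM plus 1, used here for levels and as an alternative. The depth limits precision to the totals given above. P-values between conditions rest on a spread estimated over all libraries of a fit, with 3 cultures a condition. In the slope fits that spread also holds differences between cell types and times. Each test was fitted in edgeR 4.0.16 (R 4.3.3; TMM, filterByExpr, quasi-likelihood) over its 36 libraries, and comparisons between tests over 72, with Benjamini-Hochberg adjustment for conditions and Bonferroni for slopes at 0.05. CPM used a prior count of 2; a prior of 0.5 moved log2 changes by at most 0.0062. Alternatives were DESeq2 1.42.0, limma 3.58.1 on log2(TPM + 1), other scalings and filters, and leaving out cultures or libraries; those at 8 h, between tests and between starting cultures were chosen after seeing the data. Functions were tested on simulated data.

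Time points of a condition came from the same culture, so the replicate number marks a shared culture. Libraries of the same culture (126 pairs, 18 cultures) had a median correlation of 0.027 of their deviations from group means, and 28.6% of pairs were over 0.1. The named genes were the most abundant of each role class, the extremes of each comparison and short lists of genes past the threshold; the lists of 12 and 13 genes at 16 h, *GAR1* by library and the chromosome VII block were chosen after their values were seen. The members and lists were chosen with earlier results of these data known. Promoters and positions were read from the RefSeq R64 genome, in which 6014 of 6843 features and all 49 genes were found by systematic name. No member overlaps another of the 6014 features so found. Features without a match had no position and were not checked.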

Additional observations from a re-analysis of the deposited data

Results flagged for a closer look

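Differences between groups in the change from 0 h were tested directly, and those past the threshold are listed here with the number of the 49 genes. Polyploid and arrested cells of the *mad1Δ bub2Δ* test differed in 21 genes after 4 h, in 45 after 8 h and in 19 after 16 h. Of all genes 12% were higher and 13.6% lower after 4 h, 16.8% and 20.3% after 8 h, and 11.3% and 12.6% after 16 h. The like counts for polyploid and arrested cells with *cdc24-1 swe1Δ* were 1 gene after 4 h, 41 after 8 h and 15 after 16 h. Shares of all genes higher and lower there were 4.33% and 2.9%, 11.2% and 12.1%, and 4.35% and 7.53%. The 1 gene after 4 h was lower and is 2.04% of the 49, below the 2.9% of all genes. Against cycling cells at 16 h, polyploid cells differed in 11 and 33 genes. The 11 were 14.3% higher and 8.16% lower of the 49, below the 20.3% and 21.8% of all genes. The 33 were all lower, where 19.7% of all genes were higher and 18.3% lower. Between the tests, polyploid cells differed in 3 genes at 8 h (7.79% of all genes were higher and 8.86% lower) and 1 at 16 h (7.76% and 6.23%). Both counts lie below those shares over both directions. Arrested cells differed in 49 at 8 h (23.4% and 19.2%) and 36 at 16 h (14.2% and 10.2%). Cycling cells differed in 19 at 16 h (12% and 9.79%). The slopes on DNA content differed between the tests in 2 genes, *NOP7* and *UTP22*. These are 4.08% of the 49, where 1.46% of all genes were above and 1.32% below 0. Both lie in the chromosome VII block that was higher in the *cdc20-1* strain at 0 h.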

How the results depend on the processing

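Of the alternative counts of genes past the threshold, 455 lay within 1.5 times the main count, 112 did not, and 8 had most calls in the other direction; of the single gene values named, 742 kept direction and side of the threshold, 85 lost the call, 14 gained one and 5 turned sign. By library totals, polyploid *mad1Δ bub2Δ* cells gave 13 genes at 4 h and 23 at 16 h, polyploid *cdc24-1 swe1Δ* cells 17 at 16 h (direction turned), nocodazole-arrested cells 21 at 16 h, and the 0 h strains of that test 7. The differences were then 0 at 4 h and 4 at 16 h for polyploid against *cdc20-1* cells, 6 against cycling *cdc24-1 swe1Δ* cells, and 0 between polyploid cells of the tests at 8 h and at 16 h. On the TPM scale (limma), polyploid *mad1Δ bub2Δ* cells gave 5, 16 and 29 at 4, 8 and 16 h, nocodazole-arrested cells 19 at 8 h and 20 at 16 h (turned), cycling cells 17 (turned), polyploid *cdc24-1 swe1Δ* cells 26 at 8 h and 26 at 16 h (turned), and *cdc20-1* cells 43 at 16 h. The differences on that scale were 3, 19 and 4 for polyploid against arrested *mad1Δ bub2Δ* test cells at 4, 8 and 16 h, 37 against cycling cells, 3 between strains at 0 h, 0 and 7 for polyploid against *cdc20-1* cells at 4 and 16 h, and 6 against cycling cells. Between tests they were 6 (turned) and 0 in polyploid cells, 23 in arrested and 43 in cycling cells at 16 h, and the slope counts were 0 and 1. *UTP7* then turned to -0.73 for the difference at 8 h and *KRR1* to 0.0062 for the difference from cycling cells.

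Fitting the compared conditions alone gave 3 and 38 for polyploid and arrested *mad1Δ bub2Δ* test cells at 4 h, 3 for cycling cells, 4 for polyploid against cycling, 30 for their starts, 19 and 8 for polyploid *cdc24-1 swe1Δ* cells at 4 and 8 h, 11 for cycling cells, 0 and 9 for polyploid against *cdc20-1* at 4 and 16 h, and 5 between cycling cells. With 12 h in place of 16 h the counts were 20 and 27 (turned) for polyploid cells, 44 for *cdc20-1* cells, 32 for polyploid against arrested, 9 for polyploid against cycling *cdc24-1 swe1Δ* cells and 2 between polyploid cells. DESeq2 gave 3 for the *cdc24-1 swe1Δ* slope and 2 for polyploid against *cdc20-1* cells at 4 h. A Benjamini-Hochberg threshold gave slope counts of 1 and 10. Cell type as a covariate, polyploid cells alone and the replicate block each gave 0 for the *cdc24-1 swe1Δ* slope and 0 for the slope difference, where *UTP22* turned to -0.18, -0.11 and -0.17. The replicate block also gave 5 and 2 between polyploid cells at 8 and 16 h and moved no other count by over 1.5 times. The count between polyploid cells at 8 h was also 5 with at least 10 counts in every library, 5 without ribosomal RNA, 5 without the lowest totals and 6 without the library with *SWE1* counts.

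Leaving out each culture in turn, in the order of the tests, the counts ranged as follows. For polyploid *mad1Δ bub2Δ* cells they were 6 to 22 at 4 h, 11 to 33 at 8 h and 8 to 17 at 16 h. For nocodazole-arrested cells they were 13 to 15 at 4 h, and for cycling cells 2 to 11, turning at 10 without culture 3. Polyploid against arrested gave 12 to 33 at 4 h and 10 to 26 at 16 h, polyploid against cycling 0 to 16 (turning at 5 without polyploid culture 2), and the strains at 0 h 2 to 23. Polyploid *cdc24-1 swe1Δ* cells gave 16 to 39, 7 to 21 and 8 to 11 at 4, 8 and 16 h, *cdc20-1* cells 16 to 28 at 16 h, and cycling cells 3 to 33. Polyploid against *cdc20-1* cells gave 0 to 1, 27 to 44 and 4 to 18 at 4, 8 and 16 h, and against cycling cells 15 to 36. Between tests the range was 1 to 5 and 0 to 5 in polyploid cells at 8 and 16 h, and 2 to 27 in cycling cells. The slope counts ranged from 0 to 1 in the *cdc24-1 swe1Δ* test and 1 to 2 for the difference.

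The mean change of the 49 genes moved by more than its SD with the scaling, in the order library totals and TPM. That SD is of the later cultures alone and leaves out the spread at 0 h. In nocodazole it became -0.09 and 0.11 at 4 h, -0.41 and -0.08 at 8 h, -0.17 and 0.20 at 12 h and -0.03 and 0.32 at 16 h. In polyploid *mad1Δ bub2Δ* cells it became 0.14 (TPM alone) at 4 h, 0.52 and 0.35 at 8 h and 0.41 and 0.57 at 16 h, and in cycling cells -0.34 (TPM alone). In polyploid *cdc24-1 swe1Δ* cells it became 0.47 and 0.62 at 8 h, 0.80 (TPM alone) at 12 h and 0.29 and 0.47 at 16 h. In *cdc20-1* cells it became 1.22 and 1.28 at 4 h, 1.70 and 1.81 at 8 h, 1.37 and 1.597 at 12 h (1.08 with DESeq2 size factors, 1.09 without ribosomal RNA) and 0.85 and 1.08 at 16 h. The cause of these shifts was not tested. They are of the size of the shift in the median of all genes, and less that median the mean varied by at most 0.0874. A factor for each library cancels in that difference, so it is no test of scalings other than TPM. Totals of 1597321 to 9987276 counts limit the calls, and 3 cultures a condition limit them further.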
